A study of Mus musculus with 21 samples.

Results

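Zic genes encode transcription factors with a block of C2H2 zinc fingers, closely related to those of the Gli proteins that carry hedgehog signals. In the embryo they mark the dorsal neural tube, its roof plate and neighbouring tissues such as the cerebellar primordium and the meninges. The subcommissural organ (SCO) is a secretory gland of ependymal cells that forms from the roof of the caudal diencephalon. The genes sit in the genome as head to head pairs, Zic1 with Zic4 and Zic2 with Zic5. Here 4 genes of the family, Zic1, Zic2, Zic4 and Zic5, were taken by symbol from a table of 31883 genes, and all 4 were found.

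The table holds bulk RNA sequencing values of C57BL/6 mice on postnatal day 0 (P0), from 4 libraries of SCO and 5 of hippocampus, with no treatment or altered allele named in the labels. Samples of both tissues from postnatal day 60 (P60), 12 of the series' 21, were not analysed here. The values are read counts per gene divided by a size factor for each library, called normalized counts below. The libraries held between 35379988 and 151009954 recovered reads, and hippocampus replicates 4 and 5 were the deepest. One read was worth 0.366 to 1.65 normalized counts, so a gene without a read in a library was bounded there at 1.10 to 4.95 normalized counts (3 reads, counting error only). The labels do not say whether samples came from separate animals or were pooled, and the p-values therefore rest on library-to-library spread alone, which may be technical. In bulk tissue, fewer cells of a type and less RNA per cell cannot be told apart. Lists of tissue genes were chosen with earlier results of these data known, so they describe the libraries and do not test the dissection. The summed level of the SCO genes Sspo, Spdef and Car3 was 10570 to 30423 normalized counts in SCO and 97.0 to 413 in hippocampus. Of 15 hippocampal and cortical genes, 12 were called lower in SCO in limma, beside 1.34% of all genes tested. Their summed level was 8954 to 13906 in SCO against 133383 to 179587 in hippocampus.

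In GRCm38, Zic1 (ENSMUSG00000032368.14) occupies positions 91358058 to 91365810 of chromosome 9, minus strand. Zic4 (ENSMUSG00000036972.14) lies on the plus strand of the same chromosome from 91362413 to 91389348. The annotated genes overlap over 3398 bases, of which 60 are exonic in both. Zic5 (ENSMUSG00000041703.7) occupies positions 122456795 to 122465677 of chromosome 14, minus strand. Zic2 (ENSMUSG00000061524.8) follows on the plus strand from 122475435 to 122479852, and the starts of that pair are 9758 bases apart. No stretch of 50 bases was shared in the same sense between the annotated transcripts of any of these genes. Zic1 and Zic4 transcripts share 14 such stretches as complements, 0.247% of those of Zic1. Counts are summed over each gene, and whether a read lay in coding sequence, UTR or intron is not resolved.

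Promoter windows are shown for the 3 members that stood higher in SCO and had an entry in the RefSeq table of GRCm38.p6. Each window runs from 250 bases before to 50 bases after the annotated start, 5′ to 3′ on the gene's strand. Zic2 had no entry. The Zic1 window is chr9:91365719-91366018 (minus strand), that of Zic4 chr9:91368722-91369021 (plus strand), and that of Zic5 chr14:122465609-122465908 (minus strand). The RefSeq starts used for Zic1 and Zic4 are 3204 bases apart, and the Zic4 start is one of several annotated for that gene. Capitals mark matches to short promoter motifs on either strand: the CCAAT box (CCAAT), the GC box (GGGCGG) and the E-box (CACGTG).
Zic1: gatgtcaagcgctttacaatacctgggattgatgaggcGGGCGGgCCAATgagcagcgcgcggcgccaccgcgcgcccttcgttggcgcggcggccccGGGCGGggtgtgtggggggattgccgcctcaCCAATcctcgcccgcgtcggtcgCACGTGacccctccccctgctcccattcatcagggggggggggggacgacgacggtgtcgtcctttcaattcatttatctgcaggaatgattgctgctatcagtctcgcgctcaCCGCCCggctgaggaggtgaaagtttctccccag
Zic4: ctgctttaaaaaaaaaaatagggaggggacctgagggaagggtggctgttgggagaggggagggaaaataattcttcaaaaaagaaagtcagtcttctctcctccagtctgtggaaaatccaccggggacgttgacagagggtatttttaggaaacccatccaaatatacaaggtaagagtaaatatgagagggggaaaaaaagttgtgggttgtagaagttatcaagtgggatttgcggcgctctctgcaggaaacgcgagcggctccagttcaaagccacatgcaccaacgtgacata
Zic5: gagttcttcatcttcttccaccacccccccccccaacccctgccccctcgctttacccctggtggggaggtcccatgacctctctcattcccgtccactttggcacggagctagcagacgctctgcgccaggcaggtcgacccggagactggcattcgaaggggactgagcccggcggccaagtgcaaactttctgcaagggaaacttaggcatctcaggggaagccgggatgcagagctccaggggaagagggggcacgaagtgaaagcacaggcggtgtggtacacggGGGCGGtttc

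The Zic1 window was the richest in CpG, with 31 CpG pairs and 65.3% G or C. It held CCAAT 2 times, GGGCGG 3 times (once on the opposite strand) and CACGTG once. The Zic5 window had 15 CpG pairs, 62.7% G or C and 1 match to GGGCGG. The Zic4 window had 8 CpG pairs and 46.0% G or C, and none of the 6 motifs searched was found in it. Over 32817 promoter windows of the same length the median was 7 CpG pairs and 52.7% G or C, and 37.4% held CCAAT, 35.6% GGGCGG and 7.15% CACGTG on either strand. The other motifs searched were TATAAA (13.6% of all windows), GGATTA, the Otx site (7.06%), and CAGCAGG, a core of the Zic site (10.5%). None of the 3 windows held any of these. Motif matches describe letters and show no binding, and motifs do not overlap one another in these windows.

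Zic4 showed the widest gap between the tissues. It is known from its joint loss with Zic1, which leaves the cerebellum underdeveloped. SCO replicates 1 to 4 held 30449, 27508, 25266 and 19435 normalized counts. The values of hippocampus replicates 1 to 5 were 35.0, 383, 60.9, 571 and 0.381. Every SCO library was above every hippocampus library, and hippocampus replicate 5, one of the deepest, held a single read. The means were 25664 ± 4664 (SD, n = 4) and 210 ± 253 (SD, n = 5), a ratio of 122. On the log2(value + 1) scale the difference, SCO minus hippocampus, was 8.76 (SE 1.47, limma adjusted p = 0.0103). It passed with any library left out (7.41 to 9.59, limma adjusted p at most 0.0317).

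Zic1, which helps set up the dorsal neural tube and keeps cerebellar granule cell precursors dividing, was also higher in SCO. It had 4818, 1615, 2221 and 2414 normalized counts in SCO replicates 1 to 4. In hippocampus replicates 1 to 5 it had 212, 475, 57.8, 41.7 and 424. The tissues did not overlap, and SCO replicate 1 stood well above the other SCO libraries. The means were 2767 ± 1409 (SD, n = 4) and 242 ± 202 (SD, n = 5), a ratio of 11.4. The log2 difference was 3.98 (SE 0.78, limma adjusted p = 0.0231). The call was lost without SCO replicate 1 (limma adjusted p = 0.0692), SCO replicate 3 (0.0568), SCO replicate 4 (0.0547) or hippocampus replicate 3 (0.0529), while the log2 difference stayed between 3.50 and 4.37.

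Zic5, a family member with roles in neural crest and neural tube closure, did not pass the test over all genes. It had 3945, 2045, 3549 and 2245 normalized counts in SCO replicates 1 to 4. In hippocampus replicates 1 to 5 it had 278, 129, 267, 0 and 327. The tissues did not overlap, nor did they in 8.53% of the 28150 genes tested (4.78% higher in SCO). The means were 2946 ± 942 (SD, n = 4) and 200 ± 134 (SD, n = 5), a ratio of 14.7. The log2 difference was 5.15 with an SE of 1.54 (limma adjusted p = 0.111). Hippocampus replicate 4 had no Zic5 read at a depth of 151009954 reads, and without that library the log2 difference was 3.58 (SE 0.45, limma adjusted p = 0.00523). On the recovered reads, DESeq2 called it (log2 difference 3.88, adjusted p = 0.00451) and edgeR did not (log2 difference 3.85, adjusted p = 0.146).

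Zic2, known for its part in forebrain midline development and in the choice of retinal axons to stay uncrossed, was nearly silent in both tissues. It had 8.95, 0, 25.6 and 31.3 normalized counts in SCO replicates 1 to 4, 62 reads in all. In hippocampus replicates 1 to 5 it had 76.1, 8.25, 0, 0 and 0, 66 reads in all. The tissues overlapped, with means of 16.5 ± 14.5 (SD, n = 4) and 16.9 ± 33.3 (SD, n = 5). The log2 difference was 1.37 (SE 1.63, limma adjusted p = 0.688), and a difference in either direction was not detectable with this spread between libraries. Of the 4 genes, then, 2 were called higher and none lower, where 3.05% of all genes tested were called, 1.71% higher and 1.34% lower.

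**Figure D1:**
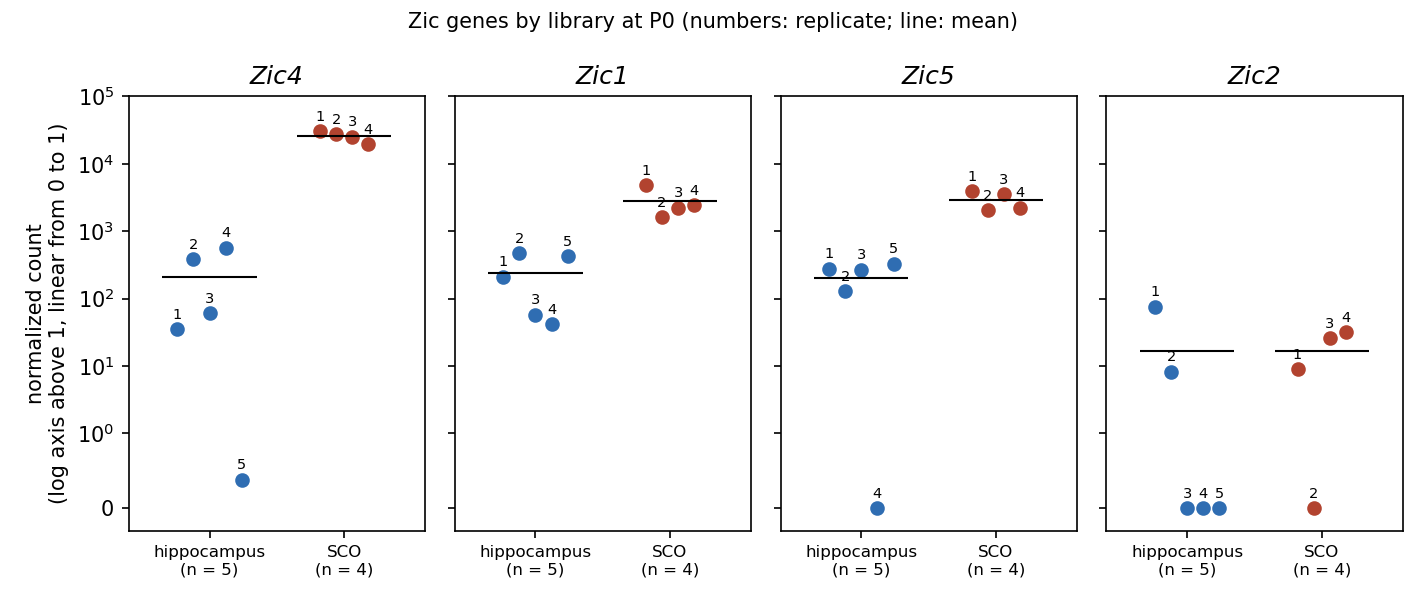
Normalized counts of Zic4, Zic1, Zic5 and Zic2 in each P0 library, on an axis that is logarithmic above 1 and linear from 0 to 1; numbers are replicates and lines are means (5 hippocampus and 4 SCO libraries). SCO points lie above all hippocampus points for Zic4, Zic1 and Zic5, while Zic2 overlaps, and single hippocampus libraries drop to 0.381 for Zic4 and 0 for Zic5.

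Levels were compared between genes per kilobase of annotated exon. In SCO, Zic4 stood first with 2483 ± 451 normalized counts per kb (SD, n = 4). Zic5 followed with 603 ± 193 and Zic1 with 486 ± 247. The lowest SCO library for Zic4 held 1880 per kb, above the highest for Zic1 (846) and Zic5 (807), whose own ranges overlapped. Zic2 came last with 5.72 ± 5.04 per kb, and its highest SCO value, 10.9, was below the lowest of Zic1, 284. In hippocampus the order was Zic1 (42.5 ± 35.4 per kb, SD, n = 5), Zic5 (41.0 ± 27.4), Zic4 (20.3 ± 24.5) and Zic2 (5.86 ± 11.6), and all neighbours in that order overlapped. Exon length was the union over all annotated transcripts, 10.3 kb for Zic4 and 2.88 to 5.69 kb for the others, so the per-kb level of a gene read mainly from short transcripts is understated.

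The make-up of the Zic signal was steadier in SCO. Zic4 took 64.0 to 79.1% of the summed per-kb level of the 4 genes in SCO, Zic5 12.4 to 20.3% and Zic1 8.44 to 18.4%. In hippocampus the leading gene differed from library to library. Zic5 led in replicates 1 and 3 with 45.9 and 77.3%, Zic1 in replicates 2 and 5 with 55.8 and 52.7%, and Zic4 in replicate 4 with 88.3%. In log2(value + 1) the SD of Zic4 was 3.46 in hippocampus and 0.28 in SCO, and that of Zic5 was 3.57 and 0.47. Zic1 had an SD of 1.61 and 0.66. For comparison, among the 4216 genes with a hippocampus mean of 100 to 400 normalized counts, the median SD was 1.69 with quartiles of 0.89 and 3.46, and 26.9% had a hippocampus library without a read. Zic1 lay near that median, and Zic4 and Zic5 at or just above the upper quartile. No such set was drawn for SCO, where Zic4 averaged 25664 normalized counts beside 210 in hippocampus. Whether the difference in level alone gives the smaller spread in SCO was not tested.

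**Figure D2:**
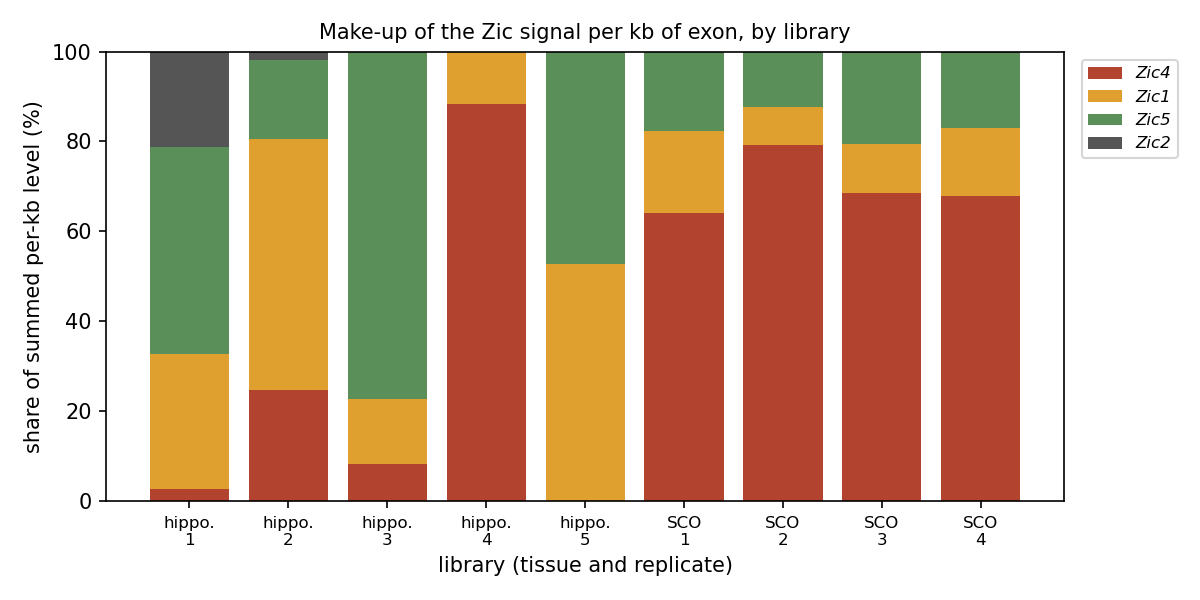
Stacked bars give the share of each gene in the summed per-kb level of Zic4, Zic1, Zic5 and Zic2, in percent, for 5 hippocampus and 4 SCO libraries. Zic4 holds 64.0 to 79.1% in every SCO library, while in hippocampus its share runs from 0.0261 to 88.3%.

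Whether the genes differed in how far apart the tissues were was asked with the difference of log2(value + 1) between 2 genes of a library, called a log2 ratio here and in which the size factor largely cancels. The log2 ratio of Zic4 to Zic1 was 3.32 ± 0.62 in SCO (SD, n = 4) and -1.47 ± 4.42 in hippocampus (SD, n = 5). The difference of 4.78 missed the threshold when library labels were permuted exactly over every split, two-sided (exact p = 0.0635, adjusted p = 0.190 over 6 pairs of genes). For Zic4 to Zic5 the difference was 3.61 (exact p = 0.349, adjusted p = 0.419), and for Zic1 to Zic5 it was -1.17 (exact p = 0.532, adjusted p = 0.532). The lowest p was that of Zic4 to Zic2, a difference of 7.39 (exact p = 0.0159, adjusted p = 0.0952), which rests on Zic2 counts near 0. The larger fold of Zic4 was therefore not shown to differ from that of Zic1 or Zic5. Within SCO, Zic1 and Zic5 stood close to each other, with a log2 ratio of Zic1 to Zic5 between -0.68 and 0.29.

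Genes around the Zic1 and Zic4 pair were higher in SCO as well. Of 16 other genes annotated to start within 500 kb of either start, 9 were tested; 4 were called higher in limma and none lower (edgeR 1 and DESeq2 5 higher, none lower; no lower gene had an unadjusted limma p under 0.05), beside 1.71% of all genes tested. All 4 are noncoding or unclassified transcripts within 42.1 kb of the Zic4 start. A730094K22Rik, beyond the 3′ end of Zic1, had 173, 493, 93.1 and 62.7 normalized counts in SCO replicates 1 to 4 and no read in hippocampus, which makes it at least 73.2-fold higher in SCO (floor of 3 reads per library; log2 difference 7.24, SE 0.96, limma adjusted p = 0.0028). Gm37477 lies within Zic4 on the opposite strand and had 607, 1691, 584 and 676 in SCO and between 0 and 48.3 in hippocampus (limma adjusted p = 0.0074). Of its bases, 468 are exonic in Zic4 too, and without a stated strand setting reads of the pair cannot be told apart.

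Farther out on chromosome 9, Gm28652 had 209 to 1233 normalized counts in SCO and 0 to 83.6 in hippocampus (limma adjusted p = 0.0375). Gm29478, beyond the 3′ end of Zic4, had 218 to 2601 in SCO and 0 to 139 in hippocampus (limma adjusted p = 0.0303). Both sets of values separate the tissues, but the Gm28652 call was lost in 7 and the Gm29478 call in 8 of the 9 fits that left out a library (limma adjusted p up to 0.112 and 0.0862). Gm29478 and Zic4 shared their highest hippocampus library, replicate 4, as did Gm37477. In edgeR on the recovered reads, Gm28652 (adjusted p = 0.180), Gm29478 (0.237) and Gm37477 (0.117) did not pass.

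At the Zic2 and Zic5 pair, 2 of 15 tested neighbours were called higher in limma, beside 1.71% of all genes tested. None was called lower, and 1 was lower at an unadjusted limma p under 0.05. In edgeR 2 and in DESeq2 5 were called higher, and none lower. One was Clybl, a mitochondrial citramalyl-CoA lyase gene, with 10227 to 19435 normalized counts in SCO and 1349 to 3501 in hippocampus (log2 difference 2.66, SE 0.33, limma adjusted p = 0.00185). The other was an antisense transcript annotated as Gm5089, which overlaps Clybl and held 85.7 to 98.0% of its value in each of the 9 libraries, so their reads cannot be told apart. Between Zic5 and Zic2 lies 2610035F20Rik, a noncoding transcript on the minus strand from 122470284 to 122475199. SCO replicates 1 to 4 held 3393, 1425, 1259 and 453 normalized counts of it, and hippocampus replicates 1 to 5 held 208, 238, 0, 0 and 0. The tissues did not overlap, but the log2 difference of 7.21 did not pass (SE 1.93, limma adjusted p = 0.0794; edgeR and DESeq2 did not call it). It was called without hippocampus replicate 2 (limma adjusted p = 0.0369). Zic2 beside it stayed at or under 31.3 normalized counts in the same SCO libraries.

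**Figure D3:**
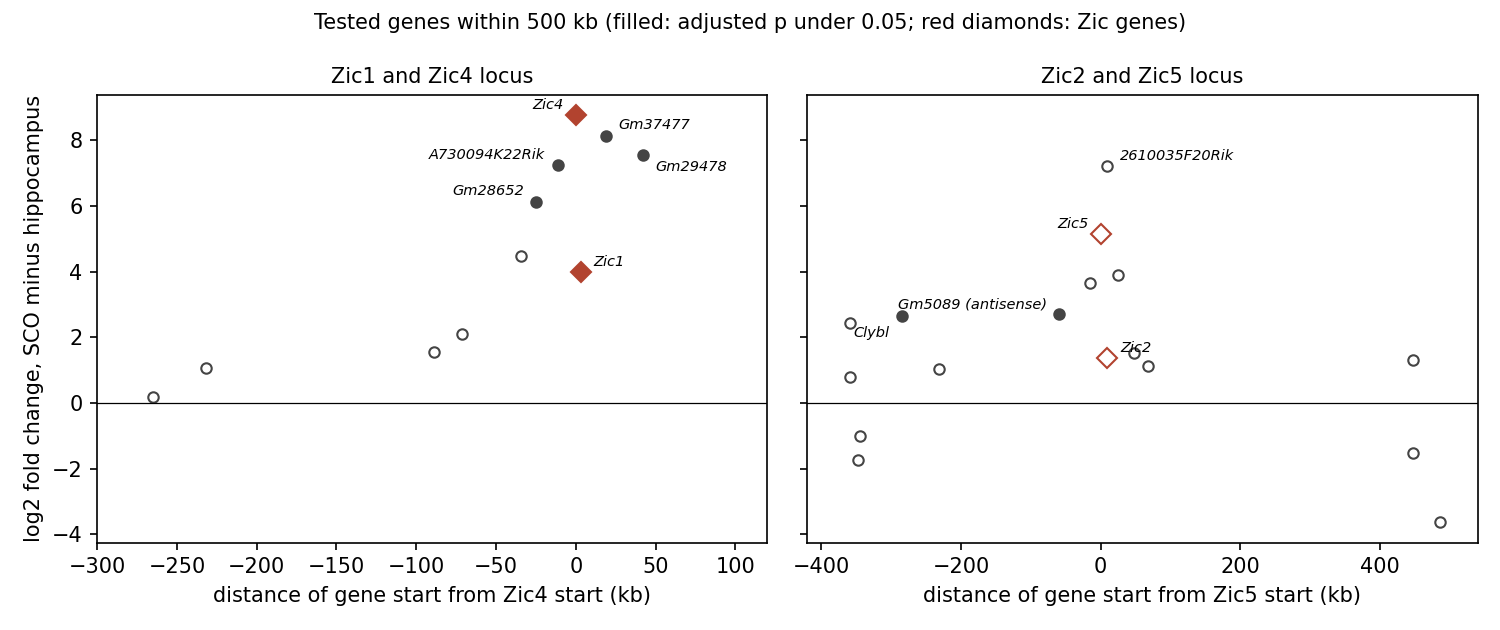
Log2 fold change, SCO minus hippocampus, of tested genes within 500 kb against the distance of their start from that of Zic4 (left) or Zic5 (right), in kb; diamonds are Zic genes and filled symbols are called. On the left, Zic4, Zic1 and the 4 called neighbours lie within 42.1 kb of the Zic4 start, while on the right Zic2 and Zic5 are both uncalled.

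Genes linked to Zic proteins were described by lists drawn from general knowledge, with earlier results of these data known. Of 6 Gli and Glis genes, the nearest relatives by their zinc fingers, none passed in limma in either direction, with a median log2 difference of 0.55 beside -0.04 for all genes tested. At an unadjusted limma p under 0.05, 2 were higher and 1 lower; edgeR called none, and DESeq2 called 1 higher and 1 lower. Gli3, the main repressor of hedgehog targets, averaged 236 ± 158 normalized counts across SCO libraries (SD, n = 4), with 846 ± 562 across hippocampus (SD, n = 5; limma adjusted p = 0.189, DESeq2 adjusted p = 0.0400). Of 11 partners and reported targets of Zic proteins, 8 were matched. In limma 3 were called higher and none lower, beside 1.71% and 1.34% of all genes tested. At an unadjusted limma p under 0.05, 4 were higher and none lower; edgeR called 2 higher and DESeq2 4, and neither called any lower. Tcf7l2, the Wnt-responsive factor whose activity Zic2 can inhibit, had 37249 ± 12709 in SCO (SD, n = 4) and 268 ± 237 in hippocampus (SD, n = 5; log2 difference 7.66, SE 0.73, limma adjusted p = 0.000589). Pax3, a dorsal neural tube factor with a Zic-bound enhancer, had 2050 to 3654 in SCO and no hippocampus read, at least 961-fold higher by the floor of 3 reads per library. The dopamine D1 receptor gene Drd1 had 845 to 3528 in SCO and 0 to 249 in hippocampus (limma adjusted p = 0.0349), a call lost in 7 of 9 fits without a library and in edgeR (adjusted p = 0.218).

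The other targets did not pass in limma or edgeR. Apoe, whose promoter Zic1 and Zic2 can bind, averaged 84849 ± 43505 normalized counts across SCO libraries (SD, n = 4), with 31880 ± 8290 across hippocampus (SD, n = 5; limma adjusted p = 0.261), and DESeq2 called it higher (adjusted p = 0.0223). Ephb1, the guidance receptor that Zic2 switches on in retinal neurons, had 2081 ± 536 and 1611 ± 443 (limma adjusted p = 0.611). Another list held 18 roof plate signals and factors, which act upstream of or beside Zic genes in the dorsal neural tube. None was called higher in limma and 1 lower (1.71% and 1.34% of all genes tested), with a median log2 difference of 0.00. At an unadjusted limma p under 0.05, 4 were higher and 2 lower. In edgeR none was called higher and 1 lower, and in DESeq2 2 were called higher and 1 lower. The gene called lower in limma was Msx3, a homeobox gene of the dorsal neural tube. Msx3 had 1 read in the SCO libraries together and 204 to 781 normalized counts in hippocampus (log2 difference -8.03, SE 0.91, limma adjusted p = 0.00121). Msx1, a roof plate homeobox gene, had 310 to 7799 in SCO and 31.4 to 764 in hippocampus, and the tissues overlapped (limma adjusted p = 0.125, DESeq2 adjusted p = 0.00451).

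Markers of other tissues that can carry Zic transcripts were read in the same libraries. Of 13 meningeal genes tested none passed in limma, edgeR or DESeq2, and none had an unadjusted limma p under 0.05; their summed level was 6892 to 17367 normalized counts in SCO and 3708 to 15015 in hippocampus, overlapping. The mean was higher in SCO for 9 of the 13 and lower for 4, and the tissues overlapped for all 13. Ogn, a small matrix proteoglycan gene, had 604 ± 434 in SCO (SD, n = 4) and 73.5 ± 83.6 in hippocampus (SD, n = 5), while Twist1, a mesenchymal factor, had no SCO read and at most 47.2 in hippocampus. Of 14 habenular and thalamic genes, 5 were called higher and 1 lower, beside 1.71% and 1.34% of all genes tested. Their summed level was 41526 to 66202 in SCO and 14869 to 19280 in hippocampus. The vesicular glutamate transporter gene Slc17a6 had 12874 ± 1777 in SCO (SD, n = 4) and 2201 ± 743 in hippocampus (SD, n = 5; log2 difference 2.63, limma adjusted p = 0.00176). Gpr151, a habenular receptor gene, ran from 0 to 3553 in SCO, with 2 SCO libraries and all hippocampus libraries without a read. It did not pass in limma (adjusted p = 0.306) or edgeR (adjusted p = 0.162), while DESeq2 called it (adjusted p = 3.87e-15). Lhx2, a factor of cortex and thalamus, was the member called lower (log2 difference -4.46, limma adjusted p = 0.0143). The part of these tissues in the Zic values was not tested.

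Cells of the cortical hem and septum also make Zic transcripts. Of 11 tested genes of Cajal-Retzius cells, hem and septum, 3 were called higher in SCO (Calb2, Ebf2 and Dbx1) and Reln lower. The shares beside this list and those below are 1.71% of all genes tested called higher and 1.34% lower. Dbx1, a progenitor homeobox gene, had 248 to 1528 normalized counts in SCO and no hippocampus read, at least 252-fold higher by the same floor. The summed level of that list was 19478 to 29320 in SCO and 12051 to 20964 in hippocampus, overlapping. Its largest member in SCO was Calb2, which is in the habenular list too (18785 ± 5189 in SCO, 6610 ± 1023 in hippocampus). Reln went the other way (1652 ± 626 and 8142 ± 2874). The mean was higher in SCO for 6 of the 11 and lower for 5, so the sum does not describe the list as a group. Of 8 cerebellar granule cell genes tested, Pax6 and Meis1 were called higher and Neurod1 lower, and the summed levels overlapped (7943 to 16359 and 12293 to 18348). The Meis1 call was lost in 7 of 9 fits without a library and in edgeR (adjusted p = 0.204). None of 9 choroid plexus genes tested passed in limma or edgeR. At an unadjusted limma p under 0.05, 3 were higher, and DESeq2 called 3 higher. The mean was higher in SCO for all 9 (median log2 difference 2.65), and the tissues overlapped for 7. Those without overlap were Folr1 (1205 to 2805 in SCO, 79.5 to 948 in hippocampus) and Sostdc1 (716 to 5809 and 225 to 688), beside 4.78% of all genes tested. In the summed choroid plexus genes, SCO replicate 4 held 186019 beside 2362 to 7238 in the other SCO libraries. That library had the lowest Zic4, and without it the Zic4 difference was 8.89 (limma adjusted p = 0.0252). SCO replicate 1, the library highest in Zic4, Zic1 and Zic5, was also highest in the summed habenular, roof plate (18211) and pineal (10598) genes. Of 6 pineal genes tested, 1 was called higher, Chrna3, which is in the habenular list too.

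**Figure D4:**
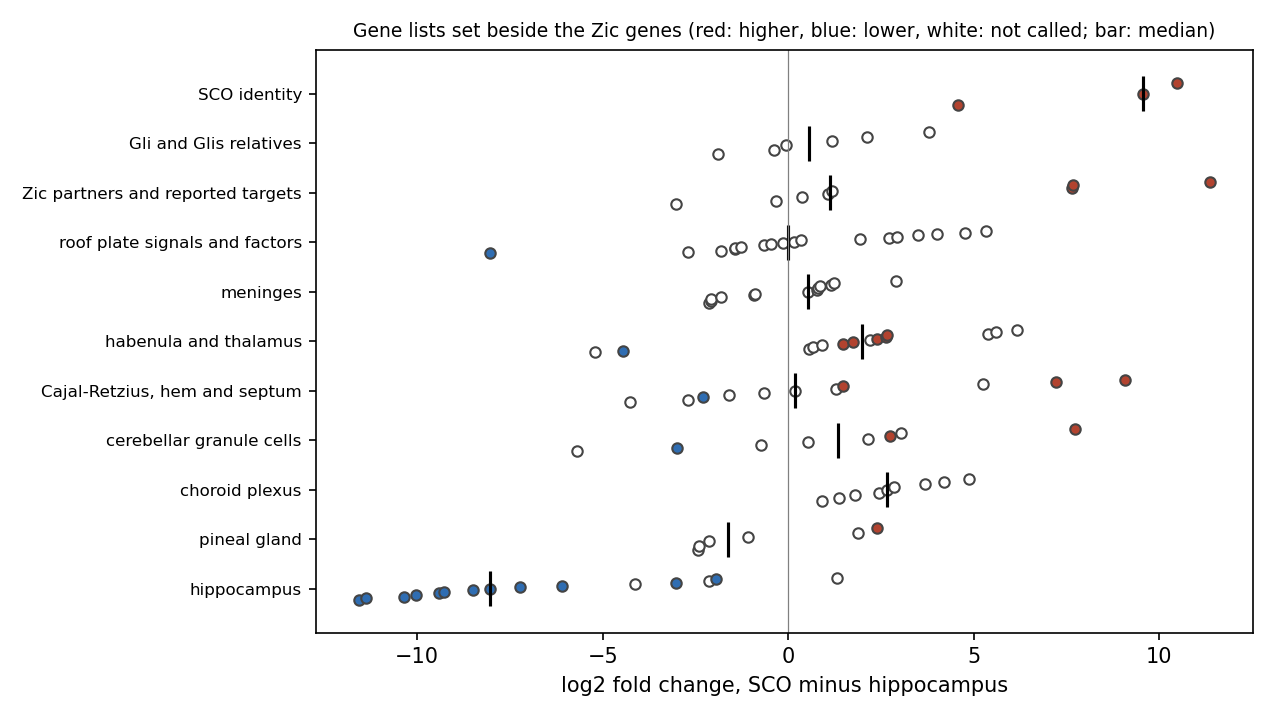
Log2 fold change, SCO minus hippocampus, of each tested member of 11 gene lists set beside the Zic genes; bars are medians, red members were called higher, blue lower and white not called. The Gli and Glis and the meningeal lists hold no member called in limma, while 12 of 15 hippocampal genes are lower.

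The genes with the most similar pattern over the 9 libraries were found by the root mean square difference of log2(value + 1). Each profile was centred on its mean, and the candidates were 15012 genes with at least 50 normalized counts in the higher tissue. Pseudogenes and genes with names of Gm and a number, or ending in Rik, were left out. The noncoding transcripts described above near the Zic genes were therefore not candidates. All these profiles share the same libraries and depths. Nearest to Zic1 were Slc14a2 (a urea transporter gene, 0.86), Kdelr3 (an endoplasmic reticulum retrieval receptor gene, 0.88) and Rnaset2a (a ribonuclease gene, 0.89), beside a median distance of 2.53. Nearest to Zic4 were Crispld1 (1.66), Asic4, of the acid-sensing ion channel family (1.67), and Slc27a2, a very long chain fatty acid transporter gene (1.74), beside a median of 5.03. Each of those 3 was called higher in limma, and each call was lost in 7 of 9 fits without a library. In edgeR none of the 3 passed (adjusted p = 0.201 for Crispld1, 0.188 for Asic4 and 0.221 for Slc27a2). Nearest to Zic5 were Abhd3 (0.63), Pdgfd, a growth factor gene (0.66), and Lrrc34 (0.73), beside a median of 3.67. None of those 3 was called in limma with all libraries or in edgeR, while DESeq2 called each (adjusted p at most 0.0448), as did limma without hippocampus replicate 4 (adjusted p at most 0.0317). Zic2, with its few reads, lay nearest to Sox21 (1.22), Lrrc75b (1.52) and Rims4 (1.55).

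The Zic genes were not each other's nearest. Zic1, the gene next to Zic4 in the genome, ranked 648 among the candidates by nearness to Zic4 (distance 3.80). In the other direction, by nearness to Zic1, Zic4 ranked 12931, farther than the median distance of 2.53. The 2 ranks differ because each gene has its own spread of distances. By nearness to Zic5, Zic1 ranked 33 (2.01) and the genomic neighbour Zic2 ranked 2518 (3.35). The authors' deposited table gives log2 fold changes of 6.93 for Zic4 (adjusted p = 1.49e-08), 3.88 for Zic5 (0.00501), 3.52 for Zic1 (3.78e-05) and -0.03 for Zic2 (0.997).

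**Figure D5:**
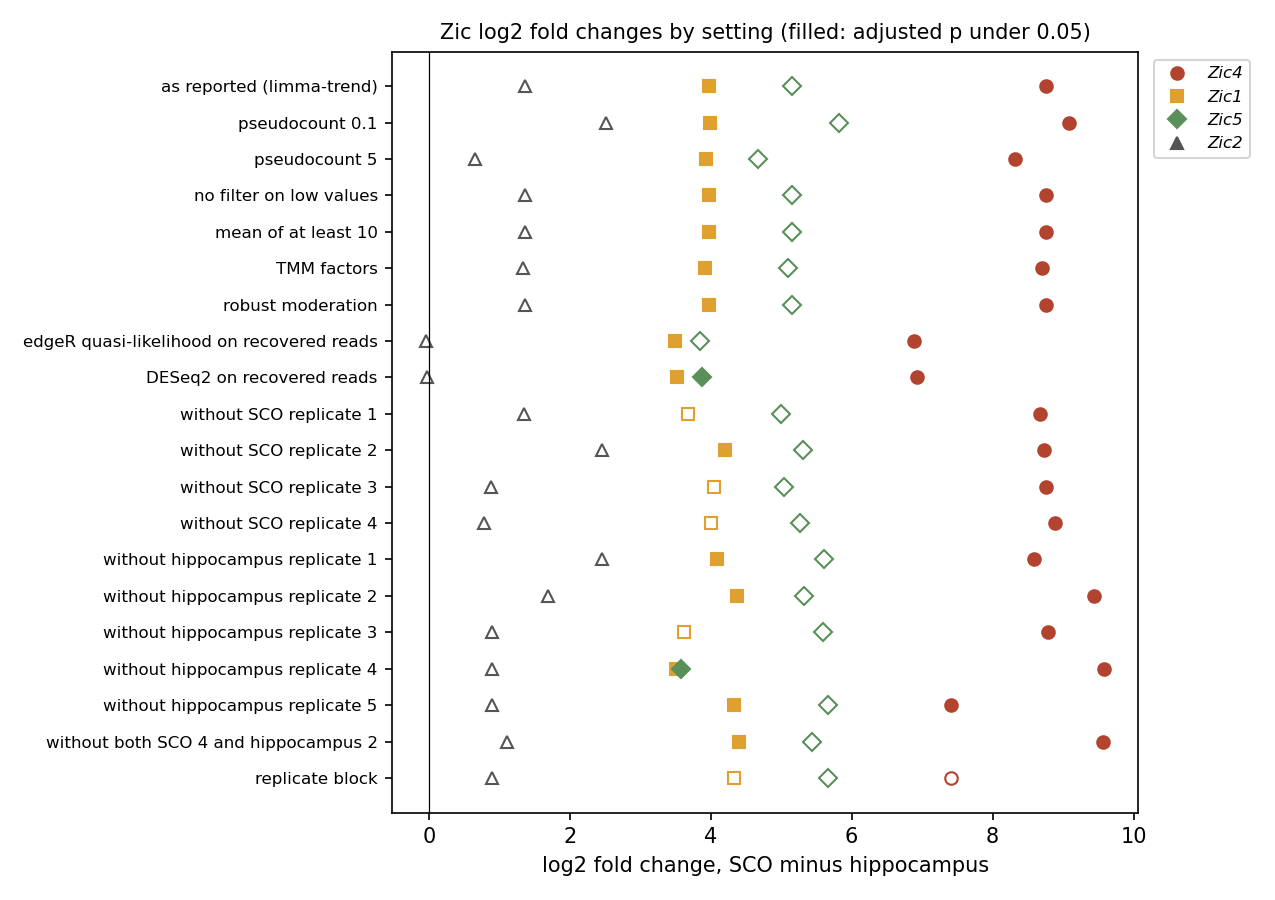
Log2 fold change, SCO minus hippocampus, of Zic4, Zic1, Zic5 and Zic2 under each setting, with filled symbols where the adjusted p was under 0.05. Zic4 lies between 6.89 and 9.59 throughout, Zic1 between 3.49 and 4.40, and Zic5 between 3.58 and 5.82, while Zic2 falls to -0.036 in edgeR.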

How the data were processed

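The submitters' processing notes name FastQC, HISAT, HISAT2, featureCounts, DESeq2 and the build GRCm38. Not given in the sources used here: versions, annotation and strand setting. The authors deposited 1 table of normalized signal per library: read counts divided by 1 size factor each. The authors also deposited a log2 fold change per gene with its standard error, a test statistic (a score) and a raw and adjusted p-value. Dividing by the value of 1 read gave whole numbers for 100% of values (tolerance 1e-06). There were 0 columns of another series.

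Members and gene lists were chosen with earlier results of these data known. Values plus a pseudocount of 1 were put on the log2 scale and tested with limma-trend. Tested genes (28150) averaged at least 1 in one tissue or the other, and calls were made under 0.05 after Benjamini-Hochberg adjustment. Such fold changes understate those of low genes, and exceed the ratio of means where 1 library is near 0. Pair ratios used exact permutation tests. Alternatives were edgeR and DESeq2 on recovered reads, TMM factors, pseudocounts of 0.1 and 5, other filters, robust moderation, left-out libraries and a replicate block. The text names the members, genes within 500 kb and the 3 nearest profiles for each. It also names list members called with a mean of at least 50 (at most 6 per list, not all of them named). Gli3, Apoe, Ephb1, Msx1, Gpr151, Ogn, Twist1, Folr1, Sostdc1 and 2610035F20Rik were singled out after their values were seen. Versions were R 4.3.3, limma 3.58.1, edgeR 4.0.16, DESeq2 1.42.0, Python 3.11.15 and matplotlib 3.10.9. Positions and exon lengths come from GENCODE M21 (31302 identifiers matched).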

Additional observations from a re-analysis of the deposited data

Results flagged for a closer look

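Values of 2 groups held a library that stood far from the others. Zic2 had 76.1 normalized counts in hippocampus replicate 1, while the other hippocampus libraries held at most 8.25. The summed choroid plexus genes reached 186019 normalized counts in SCO replicate 4, beside at most 7238 in the other SCO libraries. These were 2 of the 36 groups of libraries examined, and chance gives about 1 in 20.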

How the results depend on the processing

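Zic1, Zic4 and Zic5 were higher in SCO under every setting run, and Zic2 reversed in edgeR (-0.036) and DESeq2 (-0.031). With a library left out the log2 difference ran from 3.50 to 4.37 for Zic1, 7.41 to 9.59 for Zic4, 3.58 to 5.66 for Zic5 and 0.79 to 2.46 for Zic2. DESeq2 on recovered reads called Zic5 (3.88) and edgeR did not (3.85). The number of genes called was 859; it was 503 in edgeR, 2708 in DESeq2 and 498 to 1077 with a library left out (498 without hippocampus replicate 3, 564 without SCO replicate 3 and 565 without hippocampus replicate 1). The median gene moved from -0.04 to -0.10 with TMM factors. Rims4 reversed in edgeR (-0.87) and DESeq2 (-0.86), and Sox21 without SCO replicate 4 (-0.21; up to 1.91 with another library left out). The cause of these shifts was not tested. The titles number the libraries within each tissue, and the replicate block used those numbers. Libraries of the same title number did not deviate together (correlations of -0.0305 to 0.0199), and none correlated best with its own number. The bracketed sample names carry other numbers, of which 3 and 6 occur in both tissues. SCO_6 (SCO replicate 3) correlated best with Hippo_6 (hippocampus replicate 4). SCO_3 (SCO replicate 2) correlated best with hippocampus replicate 1, not with Hippo_3 (replicate 2). Whether the bracketed numbers mark pairs was not tested. With the replicate block, 1 gene was called. The log2 differences were 4.33 for Zic1 (limma adjusted p = 0.132) and 7.41 for Zic4 (limma adjusted p = 0.0754). Hippocampus replicate 5 has no SCO library of its number, so these differences equal those of the fit without it. Zic2 rests on 62 and 66 reads in all, 61 of the latter in hippocampus replicate 1, and the deepest libraries held none.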
